A study of Rattus norvegicus with 8 samples.

Results

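Potassium channel subunit genes were taken as every gene on the array whose symbol starts with Kcn, which gave 92 genes read by 124 of 30367 probes, with 1 probe per gene, the one of highest mean signal over all arrays. The arrays measured messenger RNA of the hippocampus from male Sprague Dawley rats 3 months old, 4 of them given vehicle and 4 given yohimbine plus imipramine (Y+I) for 7 days, with tissue taken 2 h after treatment. Yohimbine is an alpha2-adrenoceptor blocker and imipramine a tricyclic inhibitor of noradrenaline and serotonin reuptake. Each animal had its own 1-colour array, so every group mean rests on n = 4, and the arrays give the combination only, with neither drug alone analysed here. Levels are log2 signals relative to the 75th percentile of their array, and differences are Y+I minus vehicle on that log2 scale, with the standard error and Benjamini-Hochberg adjusted p of limma over all 18799 features tested.

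Potassium channels set the resting potential of neurons, end action potentials and limit repetitive firing. Voltage-gated Kv channels open on depolarisation and take up modifier and auxiliary subunits that change their gating and traffic. Calcium- and sodium-activated channels follow the ions that enter during firing, inward rectifiers pass current near rest and in part answer to G protein-coupled receptors, and two-pore-domain channels carry background leak current. In the hippocampus these families set how pyramidal and granule cells turn input into spikes.

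Y+I animals had less messenger RNA for Kcnf1, a silent modifier of Kv2 channels, for Kcnt1, a sodium-activated channel, for Kcnip3, a calcium-binding auxiliary subunit of Kv4 channels, and for Kcnn1, a small-conductance calcium-activated channel. They had more for Kcnj6, a G protein-gated inward rectifier. The 4 decreases measured 6.48-fold, 3.13-fold, 2-fold and 1.53-fold, and the increase 1.54-fold, as reported with the scanner's own background correction. Only 2 of the 4 Y+I arrays read Kcnf1 as well above background. With normexp, a background correction that treats dim spots differently, its log2 difference was -1.02 in place of -2.70, and that of Kcnn1 was -0.19 in place of -0.62 and did not pass. Of the 92 genes, 77 were bright enough to test, and these 5 passed (6.49% of those tested), against 2.34% of all features. The single gene that rose stands beside 0.739% of all features higher, and the 4 that fell beside 1.6% lower. Among the 64 genes well above background on all 8 arrays, 4 passed (6.25%), beside 2.06% of all such features. The groups did not overlap for 20 of the 77 genes (26%), beside 11.7% of all features. In 10 of these Y+I was higher (5.04% of all features) and in 10 lower (6.65%).

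The median difference over the 77 genes was -0.11, against -0.02 over all features, with 33 genes above 0 and 44 below (54.1% of all features were below). Of the 77, 13 were kept through vehicle alone, since fewer than 4 Y+I arrays read them above background, and 0 through Y+I alone. With normexp the medians were 0.08 for the 77 genes and 0.09 for all features, a shift of over 0.1 relative to the values above. Of the 13 genes kept through vehicle alone, 8 had differences below 0, and 6 of those were above 0 with normexp. Of the 64 kept through all 8 arrays, 36 were below 0, and 5 of those were above 0 with normexp. Cyclic loess normalisation called 3 genes higher and 3 lower in place of 1 and 4. With it 3.79% of all features were called, in place of 2.34%. Leaving out single arrays kept 2 to 5 of the 5 calls, with 2 left without vehicle animal 4 and 3 without vehicle animal 1, 2 or 3 or Y+I animal 1, and without Y+I animal 3 Kcnj12 was called as well. Those fits called 0.644% to 1.89% of all features. Between animals, the median SD of a tested gene was 0.22 in vehicle and 0.24 in Y+I.

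**Figure D1:**
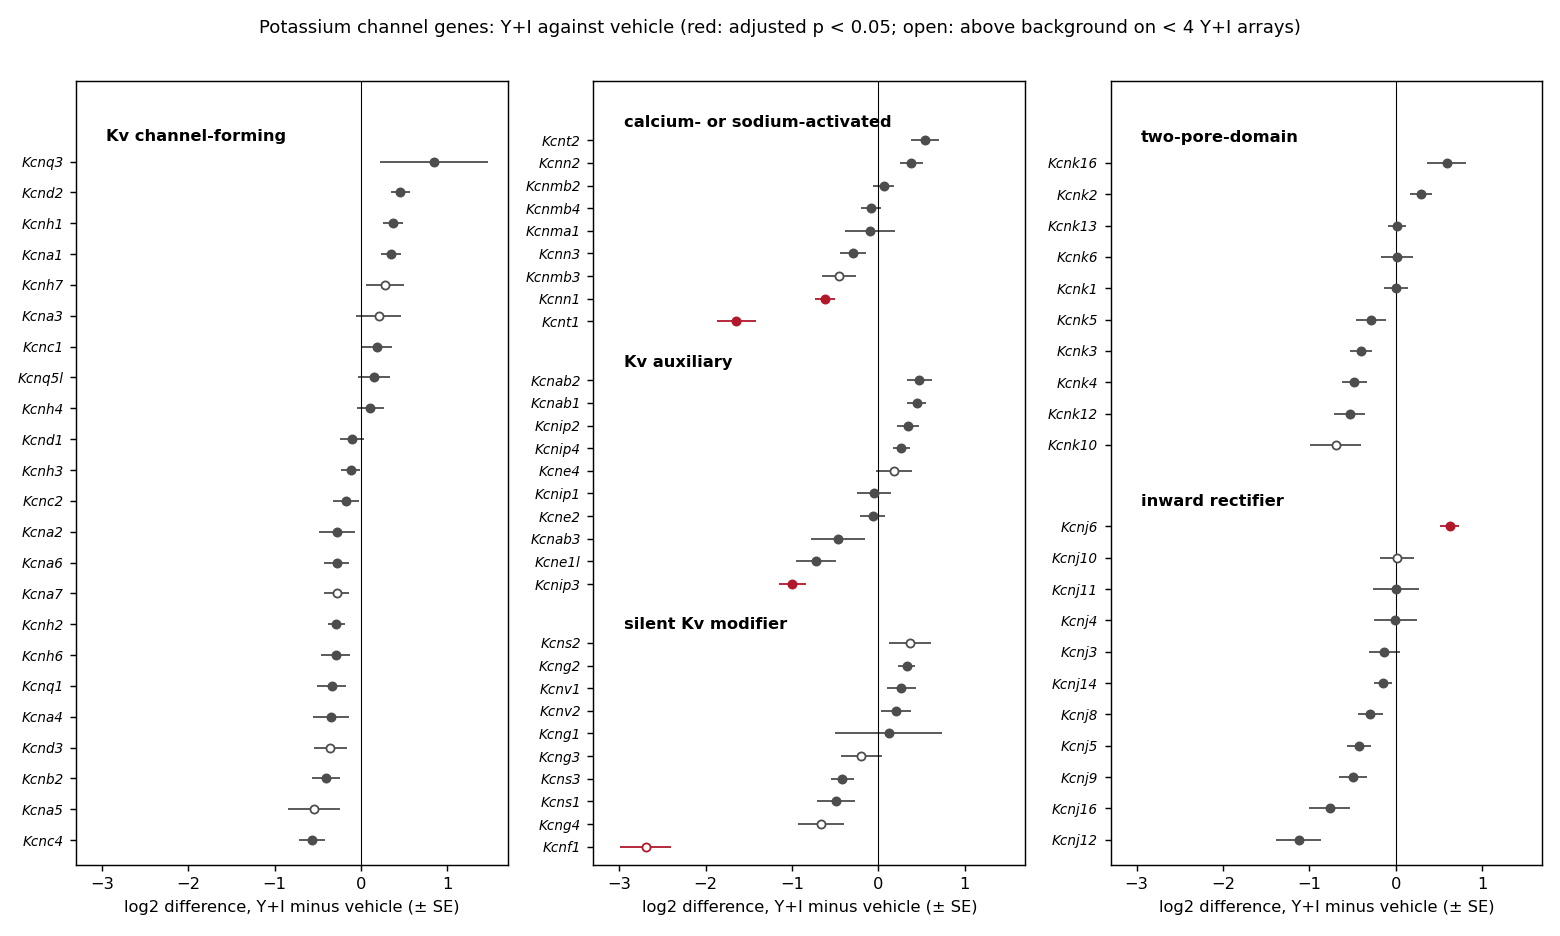
Log2 difference, Y+I minus vehicle (horizontal axis, with its standard error), for 73 of the 77 tested genes, in 6 groups by role. Red points passed at an adjusted p under 0.05, and open points were well above background on fewer than 4 Y+I arrays. Kcnf1 and Kcnt1 lie farthest to the left, and genes on both sides of 0 occur within every group.

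Of the 58717 noncontrol spots, 76.4% to 79.7% were well above background in vehicle arrays and 64.4% to 74.8% in Y+I arrays, and for the 92 genes 79 to 83 and 67 to 79 were. The arrays came from 1 slide read in 1 scan, the vehicle arrays on its first row and the Y+I arrays on its second, so the effects of row and treatment cannot be told apart. In tissue RNA, fewer cells of a type and less messenger RNA per cell cannot be told apart either.

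Silent Kv modifiers form no channel of their own but join Kv2 subunits and change their current. All 10 such genes (the Kcnf, Kcng, Kcns and Kcnv families) were tested, and 1 fell and 0 rose, beside 1.6% and 0.739% of all features. Their median difference was -0.04. That median was 0.24 with normexp and 0.16 over the 6 genes well above background on all 8 arrays. Of the 10 genes, 4 were kept through vehicle alone, Kcnf1 among them. Kcnf1, which encodes Kv5.1, gave the largest decrease among the tested potassium channel genes on the scale reported, whereas with normexp that of Kcnt1 was larger (-1.22 against -1.02). Its probe is shown because the finding rests on this single sequence; it lies at chr6:40911052-40911111 on the minus strand of rn4, at bases 1957 to 2016 of its transcript model, and of its 3 reading frames 1 is open, closing in the stop codon given in capitals.
Kcnf1 probe: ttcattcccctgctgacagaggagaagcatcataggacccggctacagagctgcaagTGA
Levels of Kcnf1 were -3.41, -3.81, -3.31 and -3.42 in vehicle animals 1 to 4 and -5.55, -7.08, -5.94 and -6.16 in Y+I animals 1 to 4. Every Y+I animal lay far below every vehicle animal, and Y+I animal 2 was lowest. The difference was -2.70 ± 0.29 (SE, adjusted p = 0.0058). Only 2 of the 4 Y+I arrays read the probe as well above background, and with normexp the difference was -1.02, still past the threshold (adjusted p = 0.00201). Kcnf1 passed whichever array was left out.

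The other 9 silent modifiers did not pass. Kcng2, a Kv6 modifier, had levels of 1.87, 2.02, 2.10 and 1.94 in vehicle animals 1 to 4 and 2.20, 2.38, 2.24 and 2.43 in Y+I animals 1 to 4. The groups did not overlap, Y+I being higher, and the difference was 0.33 ± 0.10 (SE, adjusted p = 0.139). Kcns3 and Kcng4 had differences of -0.42 and -0.67 (with normexp, 0.22 for Kcng4), the remaining genes lying between -0.49 (Kcns1, -0.11 with normexp) and 0.37 (Kcns2). Kcnb2, a channel-forming partner of the Kv2 family, had a difference of -0.40 ± 0.16 (SE, adjusted p = 0.271), and of -0.09 with normexp. Amigo1, a transmembrane partner of Kv2, was well above background on 1 Y+I array and had a difference of -0.27, or 0.25 with normexp, and the Kv2 tethering genes Vapa and Vapb had 0.05 and -0.23. None of these passed.

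Among channels gated by calcium or sodium, 9 of 11 genes were tested, and 2 fell and 0 rose, beside 1.6% and 0.739% of all features. The median difference was -0.10 (0.04 with normexp). Kcnt1 encodes Slack, a large-conductance channel opened by intracellular sodium. Its probe maps to chr3:4087970-4088029 on the plus strand of rn4, bases 3654 to 3713 of the transcript model, and is shown for the same reason as that of Kcnf1. Of its 3 frames 2 are open, the first of them ending in the stop codon tga.
Kcnt1 probe: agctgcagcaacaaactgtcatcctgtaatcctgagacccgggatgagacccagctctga
Levels of Kcnt1 were -1.30, -1.77, -1.56 and -1.16 in vehicle animals 1 to 4 and -2.64, -3.68, -2.94 and -3.13 in Y+I animals 1 to 4. The groups were separate, with Y+I animal 2 lowest as for Kcnf1. Kcnt1 fell, with a difference of -1.65 ± 0.23 (SE, adjusted p = 0.0109), passed whichever array was left out, and was at -1.22 with normexp (adjusted p = 0.00277). Kcnt2, which encodes the related sodium-activated channel Slick, had levels of -4.22, -3.92, -3.64 and -4.03 in vehicle animals 1 to 4 and -3.62, -3.52, -3.45 and -3.06 in Y+I animals 1 to 4. Here every Y+I animal lay above every vehicle animal, and the difference was 0.54 ± 0.16 (SE, adjusted p = 0.139), which passed only with cyclic loess. That the pair differed in direction was not tested.

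Kcnn1, Kcnn2 and Kcnn3 encode the small-conductance channels SK1, SK2 and SK3, which carry the afterhyperpolarisation that follows spikes. Kcnn1 was read by a pair of probes, whose shared 17 bases are in capitals; they map to chr16:19100587-19102141 and chr16:19102125-19103592 on the plus strand of rn4, spans of 1555 and 1468 bases for probes of 60 bases.
Kcnn1 brighter probe: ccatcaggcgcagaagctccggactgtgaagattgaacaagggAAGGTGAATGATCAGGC
Kcnn1 other probe: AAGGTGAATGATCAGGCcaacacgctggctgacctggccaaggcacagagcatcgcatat
The brighter probe gave -3.77, -3.62, -3.60 and -3.60 in vehicle animals 1 to 4 and -4.11, -4.25, -4.14 and -4.55 in Y+I animals 1 to 4. The other gave -3.85, -3.76, -3.80 and -3.61 in vehicle animals 1 to 4 and -4.21, -4.15, -4.23 and -4.29 in Y+I animals 1 to 4. Both probes put every Y+I animal below every vehicle animal, and since they share bases they are not independent readings. Kcnn1 fell, with a difference of -0.62 ± 0.12 (SE, adjusted p = 0.0347) on the brighter probe and -0.47 on the other (adjusted p = 0.0401 among all probes). The call did not hold under every setting: with normexp the difference was -0.19 (adjusted p = 0.228) and with cyclic loess -0.46 (adjusted p = 0.118). It was also lost without vehicle animal 1, 2, 3 or 4 (adjusted p = 0.0699, 0.099, 0.0989 and 0.12) and without Y+I animal 1 or 2 (0.0516 and 0.0642).

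For Kcnn2 the signs were opposite, with levels of -3.99, -3.50, -3.56 and -3.74 in vehicle animals 1 to 4 and -3.47, -3.12, -3.29 and -3.39 in Y+I animals 1 to 4. Y+I was higher without overlap, and the difference was 0.38 ± 0.13 (SE, adjusted p = 0.202), which did not pass. Kcnn3 had a difference of -0.29. Kcnma1, the pore of the large-conductance BK channel, stood at -0.10 (0.04 with normexp), with 1 low array (Y+I animal 2, at -3.41) and the other Y+I animals between -2.39 and -1.89. Its beta subunits Kcnmb2, Kcnmb4 and Kcnmb3 had 0.06, -0.08 and -0.45. Kcnmb3 was well above background on 2 Y+I arrays, and its difference was 0.16 with normexp. None of these passed. Kcnmb1 and Kcnn4 were too dim to test.

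Kv4 channels carry the A-type current that dampens dendritic excitability, and each takes up KChIP subunits (Kcnip genes) and DPP subunits (Dpp6 and Dpp10). Kcnip3 encodes KChIP3, also known as calsenilin and as the transcriptional repressor DREAM. Its probe matches chr3:114961933-114962584 on the minus strand of rn4, a span of 652 bases for a probe of 60 bases, at bases 682 to 741 of the transcript model, and 1 reading frame is open through it.
Kcnip3 probe: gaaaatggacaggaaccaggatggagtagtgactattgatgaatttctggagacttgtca
Levels of Kcnip3 were -2.33, -3.05, -2.77 and -2.65 in vehicle animals 1 to 4 and -3.77, -3.77, -3.71 and -3.53 in Y+I animals 1 to 4. The Y+I animals lay close together and below all vehicle animals. Kcnip3 fell, with a difference of -0.997 ± 0.15 (SE, adjusted p = 0.0156), and was at -0.58 with normexp (adjusted p = 0.0377). Without vehicle animal 4 the call was lost (adjusted p = 0.0647), and it held without any other single array.

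The sister genes Kcnip2 and Kcnip4 had differences of 0.34 ± 0.13 (SE, adjusted p = 0.244) and 0.27 ± 0.10 (SE, adjusted p = 0.234), and Kcnip1 -0.05 (0.10 with normexp). For Kcnip4 the groups did not overlap, Y+I being higher. Kcnd2, which encodes Kv4.2, the main Kv4 pore of hippocampal pyramidal cells, had levels of 0.43, 0.49, 0.18 and 0.18 in vehicle animals 1 to 4 and 0.69, 0.69, 0.87 and 0.85 in Y+I animals 1 to 4. Every Y+I animal lay above every vehicle animal. The difference was 0.46 ± 0.11 (SE, adjusted p = 0.0771), and a second Kcnd2 probe gave 0.42, again with no overlap (adjusted p = 0.0607 among all probes). Kcnd2 did not pass as reported, but did with the mean of its probes (adjusted p = 0.0477), with a trended, robust variance (0.04) and with no filter on background (0.0421). Kcnd1 and Kcnd3 had differences of -0.11 and -0.36. Kcnd3 was well above background on 3 Y+I arrays, and its difference was 0.11 with normexp. Of the DPP subunits, Dpp10 had levels of -3.18, -3.73, -3.37 and -3.40 in vehicle animals 1 to 4 and -4.29, -4.23, -4.27 and -4.07 in Y+I animals 1 to 4. Dpp10 fell, with a difference of -0.80 ± 0.13 (SE, adjusted p = 0.0194), without overlap, whereas Dpp6 stood at 0.03. Dpp10 lost its call with normexp (difference -0.31, adjusted p = 0.164) and without vehicle animal 3 or 4 or Y+I animal 1 (adjusted p = 0.0623, 0.0743 and 0.0511). Within the Kv4 complex the auxiliary genes Kcnip3 and Dpp10 thus fell on the scale reported. The auxiliary genes Kcnip1, Kcnip2, Kcnip4 and Dpp6 did not pass, and no pore gene passed.

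The beta subunits of Kv1 channels (Kcnab genes) bind the inner face of the pore and can speed its inactivation. Kcnab1 had levels of 2.37, 2.30, 2.22 and 2.40 in vehicle animals 1 to 4 and 2.72, 3.00, 2.58 and 2.76 in Y+I animals 1 to 4. All Y+I animals lay above all vehicle animals, and the difference was 0.44 ± 0.11 (SE, adjusted p = 0.0862). A second Kcnab1 probe gave 0.39, also without overlap (adjusted p = 0.194 among all probes). Kcnab1 did not pass as reported, but passed with cyclic loess (adjusted p = 0.0458), with a trended, robust variance (0.0395) and with no filter on background (0.0439). Kcnab2 also had separate groups, with Y+I higher and a difference of 0.47 ± 0.15 (SE, adjusted p = 0.152), and Kcnab3 stood at -0.47 (-0.21 with normexp). The small membrane subunits of the Kcne family had differences of -0.72 (Kcne1l, now named Kcne5), -0.06 (Kcne2) and 0.18 (Kcne4). With normexp, Kcne1l stood at -0.20 and Kcne2 at 0.11. In all, 10 of the 13 auxiliary genes were tested, with 1 lower and 0 higher, beside 1.6% and 0.739% of all features. Their median difference was 0.07 (0.19 with normexp).

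**Figure D2:**
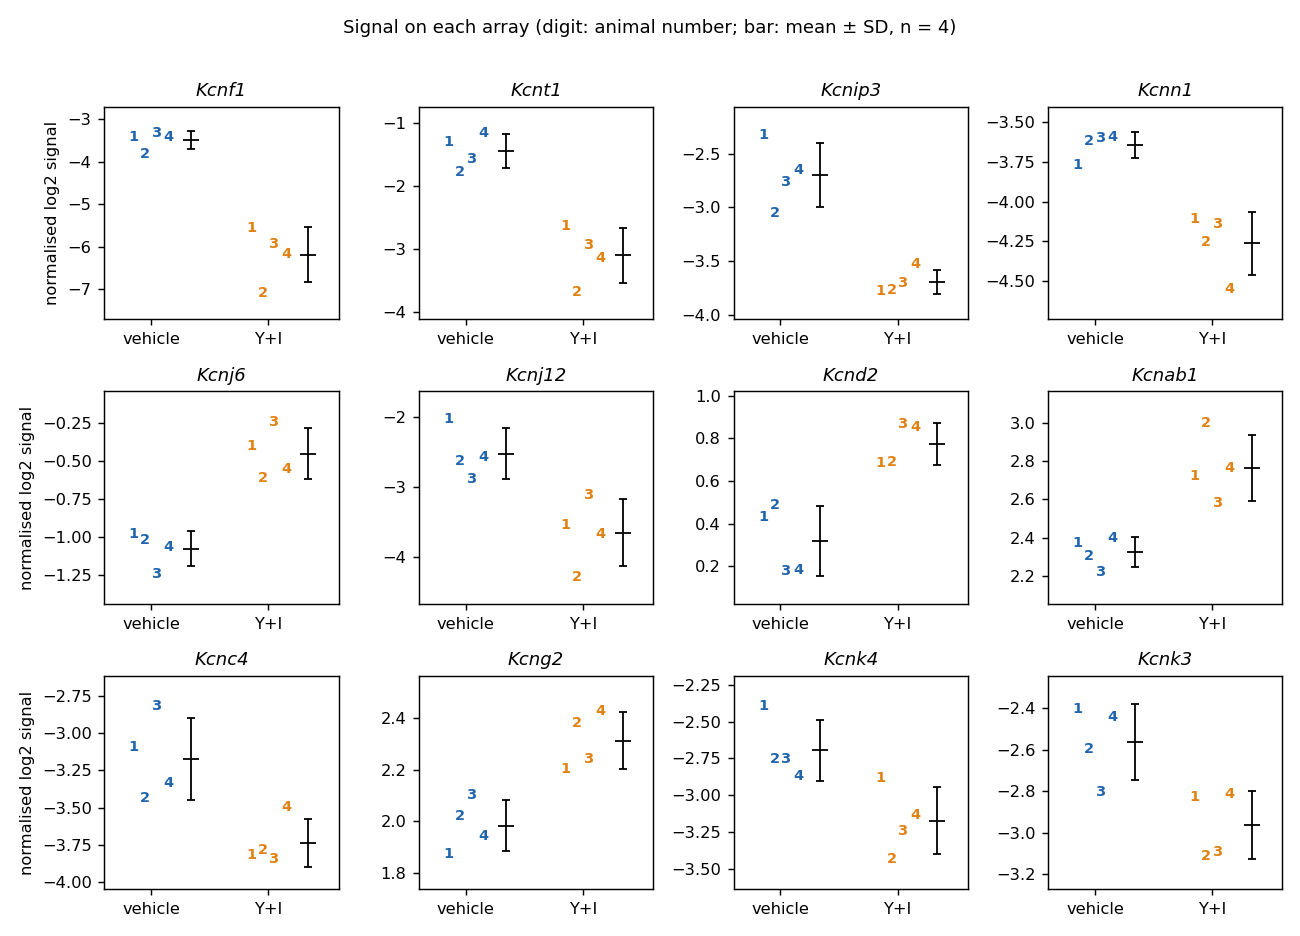
Normalised log2 signal (vertical axis, its own scale in each panel) of 12 genes on every array, vehicle in blue and Y+I in orange, with digits for the animal number and bars for the mean ± SD (n = 4). The first 5 panels are the genes that passed, and in all 12 panels the groups do not overlap, with the narrowest gaps for Kcnk3 and Kcnk4.

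Of the 30 Kv genes that form channels by themselves, 27 were tested and 0 passed in limma, with 5 higher and 3 lower at an unadjusted p under 0.05 and a median difference of -0.12 (0.11 with normexp). Beside those 8 genes stand 6.46% of all features higher and 9.17% lower at that unadjusted p. Kcnc4 encodes Kv3.4, a fast-inactivating channel of axon terminals, and had levels of -3.09, -3.44, -2.82 and -3.34 in vehicle animals 1 to 4 and -3.82, -3.79, -3.84 and -3.50 in Y+I animals 1 to 4. The groups did not overlap, Y+I being lower, and the difference was -0.57 ± 0.15 (SE, adjusted p = 0.107). With normexp it was -0.28 (adjusted p = 0.228). Kcnc1 and Kcnc2, from the same family of fast-spiking channels, had differences of 0.18 and -0.17.

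The Kv1 genes (Kcna), which set axonal threshold, held 7 tested members between -0.55 (Kcna5, 0.25 with normexp) and 0.35 (Kcna1), 2 above 0 and 5 below, and no member had separate groups. Of the 7, 3 were kept through vehicle alone. Kcna2 and Kcna7 were also above 0 with normexp (0.08 and 0.09), where the median of the 7 genes was 0.09 in place of -0.28. Kcna1, with the smallest unadjusted p of them, had levels of 2.93, 3.00, 2.83 and 2.96 in vehicle animals 1 to 4 and 3.33, 2.97, 3.38 and 3.43 in Y+I animals 1 to 4. Vehicle animals lay within a narrow band, and 3 of the 4 Y+I animals lay above it. Of the ether-a-go-go genes (Kcnh), 6 were tested, from -0.30 (Kcnh6, -0.06 with normexp) to 0.37 (Kcnh1, with separate groups, Y+I higher). The Kcnq genes encode Kv7 channels, and Kcnq3 is a subunit of those that carry the M current, which muscarinic receptors close. Differences were -0.34 for Kcnq1 (-0.07 with normexp), 0.85 for Kcnq3 and 0.15 for Kcnq5 (named Kcnq5l in the array's design), and none of these passed.

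Kcnq3 and the silent modifier Kcng1 spread most between animals among the 64 genes well above background everywhere. The brighter probe of Kcnq3 gave 1.90, 2.13, 0.21 and 1.38 in vehicle animals 1 to 4 and 0.62, 2.99, 2.03 and 3.38 in Y+I animals 1 to 4, a range of 3.16 log2 units or 8.96-fold. That of Kcng1 gave 1.08, -0.68, 2.35 and 1.54 in vehicle animals 1 to 4 and 0.94, 1.58, 1.99 and 0.26 in Y+I animals 1 to 4, a range of 3.04 or 8.20-fold. Both genes had high and low animals in each group, and the median range over those 64 genes was 0.87. Duplicate spots on 1 array differed by a median of 0.079 for Kcnq3 and 0.050 for Kcng1, so the spread lay between arrays and not between spots. The other probe of each gene varied less. For Kcnq3 it gave -3.70, -3.58, -3.77 and -3.58 in vehicle animals 1 to 4 and -3.36, -3.20, -3.24 and -2.73 in Y+I animals 1 to 4, with separate groups, a difference of 0.53 and an adjusted p of 0.114 among all probes. For Kcng1 it gave -3.25, -3.56, -2.70 and -2.98 in vehicle animals 1 to 4 and -2.89, -3.37, -2.75 and -2.98 in Y+I animals 1 to 4, with overlapping groups and a difference of 0.13. The brighter probe of Kcnq3 reads bases 5327 to 5386 of its transcript model and the other bases 2989 to 3048, while those of Kcng1 read bases 2618 to 2677 and 1209 to 1268.

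**Figure D3:**
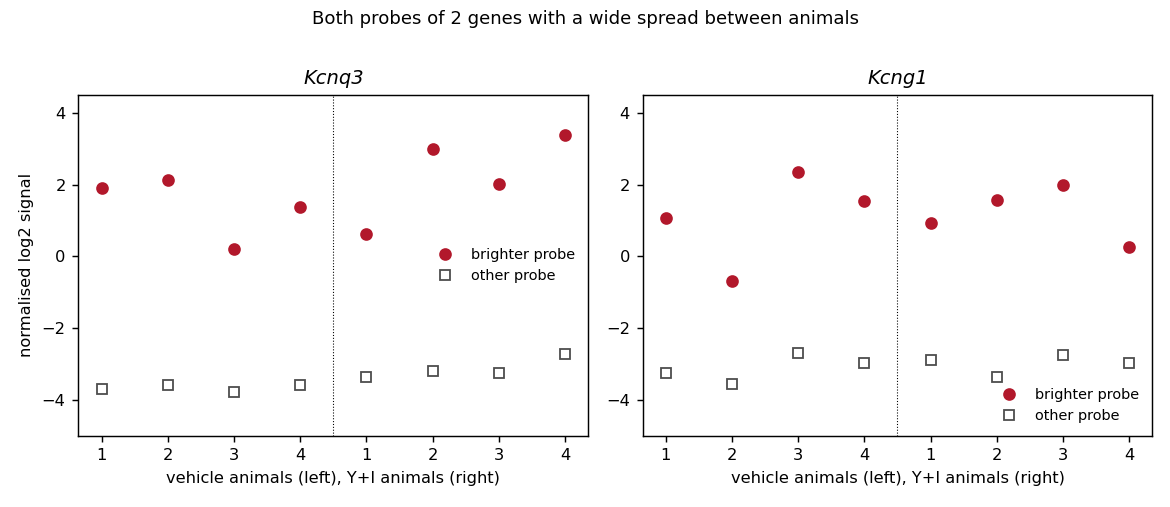
Normalised log2 signal (vertical axis) on the 8 arrays (horizontal axis, vehicle animals left of the dotted line, Y+I animals right) for both probes of Kcnq3 and Kcng1. The brighter probes (filled) range over 3.16 and 3.04 log2 units within overlapping groups, and the other probes (open) vary less.

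Inward rectifiers (Kcnj) held 15 genes, of which 11 were tested, 1 rose and 0 fell, beside 0.739% and 1.6% of all features. Their median difference was -0.14 (-0.12 with normexp). Kcnj6 encodes Kir3.2 (GIRK2), a subunit opened by G protein beta-gamma released from receptors for noradrenaline, serotonin, GABA and adenosine. Levels of Kcnj6 were -0.98, -1.02, -1.24 and -1.07 in vehicle animals 1 to 4 and -0.40, -0.62, -0.24 and -0.56 in Y+I animals 1 to 4. The groups were well apart, every Y+I animal lying above every vehicle animal. Kcnj6 rose, with a difference of 0.62 ± 0.11 (SE, adjusted p = 0.03), and its value with normexp was 0.64. The call was lost without vehicle animal 1, 2, 3 or 4 (adjusted p = 0.0661, 0.0802, 0.0854 and 0.0996) or Y+I animal 1 (0.0707). The probe maps to chr11:35025584-35025643 on the minus strand of rn4, at bases 15832 to 15891 of a long transcript model, and no reading frame is open through it.

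No other GIRK subunit passed. Kcnj9 (GIRK3) had levels of -0.70, -1.39, -1.39 and -1.39 in vehicle animals 1 to 4 and -1.70, -1.77, -1.63 and -1.76 in Y+I animals 1 to 4. Its groups did not overlap, Y+I being lower, and the difference was -0.50 ± 0.16 (SE, adjusted p = 0.171), with -0.36 on a second probe, again without overlap. Kcnj5 (GIRK4) and Kcnj3 (GIRK1) had differences of -0.43 ± 0.14 (SE, adjusted p = 0.18) and -0.13 ± 0.18 (SE, adjusted p = 0.777), that of Kcnj5 being -0.16 with normexp. The difference between Kcnj6 and its sister genes was not tested. Among regulators of GIRK gating, 5 of 6 listed genes were tested and 0 passed, with -0.43 for the G protein subunit Gng3 and -0.07 for the regulator Rgs7.

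Kcnj12 encodes Kir2.2, a strong inward rectifier that holds the resting potential. Levels of Kcnj12 were -2.03, -2.62, -2.89 and -2.57 in vehicle animals 1 to 4 and -3.54, -4.28, -3.12 and -3.67 in Y+I animals 1 to 4. The groups were separate by a narrow gap between vehicle animal 3 and Y+I animal 3, and the difference was -1.12 ± 0.26 (SE, adjusted p = 0.0668), which did not pass as reported. It passed without Y+I animal 3 (adjusted p = 0.0438), with normexp (-0.73, adjusted p = 0.0336), with median centring (0.0496) and with array weights (0.0405). Kcnj12 also passed with a trended, robust variance and with no filter on background (0.0395 in each), and with normexp combined with the filter on all 8 arrays. Kcnj16, a Kir5.1 subunit of glia and epithelia, had a difference of -0.76 ± 0.24 (SE, adjusted p = 0.151) with overlapping groups, and of -0.28 with normexp. Kcnj10 (Kir4.1), with which it assembles in astrocytes, was well above background on 2 Y+I arrays and stood at 0.02 (0.33 with normexp). Kcnj4 and Kcnj14 stood at -0.01 (0.03 with normexp) and -0.14.

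KATP channels join a Kir6 pore with a sulphonylurea receptor and open as cellular ATP falls. The pore genes Kcnj11 and Kcnj8 had differences of 0.01 and -0.29, and neither passed. The receptor gene Abcc8 had levels of 1.08, 0.89, 0.97 and 1.05 in vehicle animals 1 to 4 and 1.63, 1.31, 1.66 and 1.90 in Y+I animals 1 to 4. Its groups did not overlap, and Abcc8 rose, with a difference of 0.63 ± 0.13 (SE, adjusted p = 0.0444), while Abcc9 stood at 0.13. The call of Abcc8 was lost without vehicle animal 1, 2, 3 or 4 (adjusted p = 0.0952, 0.133, 0.12 and 0.129) or Y+I animal 1, 3 or 4 (0.0921, 0.088 and 0.0771).

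Of the 13 two-pore-domain genes (Kcnk), 10 were tested and 0 passed in limma, with 1 higher and 4 lower at an unadjusted p under 0.05 and a median difference of -0.14. Of all features, 6.46% were higher and 9.17% lower at that unadjusted p, and the median of these genes was 0.0088 with normexp and 0.0026 over the 9 genes well above background on all 8 arrays. Kcnk4 encodes TRAAK, a leak channel opened by stretch and lipids, and had levels of -2.40, -2.76, -2.76 and -2.87 in vehicle animals 1 to 4 and -2.89, -3.43, -3.24 and -3.13 in Y+I animals 1 to 4. Kcnk3 encodes TASK1, an acid-sensitive leak channel, and had levels of -2.40, -2.60, -2.80 and -2.44 in vehicle animals 1 to 4 and -2.83, -3.11, -3.09 and -2.81 in Y+I animals 1 to 4. In both genes all Y+I animals lay below all vehicle animals, though by only a small step. Differences were -0.48 ± 0.15 (SE, adjusted p = 0.151) for Kcnk4 and -0.40 ± 0.13 (SE, adjusted p = 0.158) for Kcnk3, and with normexp -0.28 and -0.24 (adjusted p = 0.188 and 0.23). Kcnk10 (TREK2) was also lower on the scale reported (-0.70, but -0.01 with normexp), being well above background on 2 Y+I arrays. Its groups were separate by a very narrow gap, and a second Kcnk10 probe gave -0.72 with overlapping groups. Kcnk12 and Kcnk5 had -0.53 and -0.29 (-0.02 with normexp for Kcnk5), while Kcnk1 (TWIK1), Kcnk6 and Kcnk13 stood at 0.00, 0.01 and 0.02. Kcnk2 (TREK1) and Kcnk16 had 0.29 and 0.59. Other tested probes of Kcnk2 gave -0.19 (0.12 with normexp) and 0.13, with overlapping groups.

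**Figure D4:**
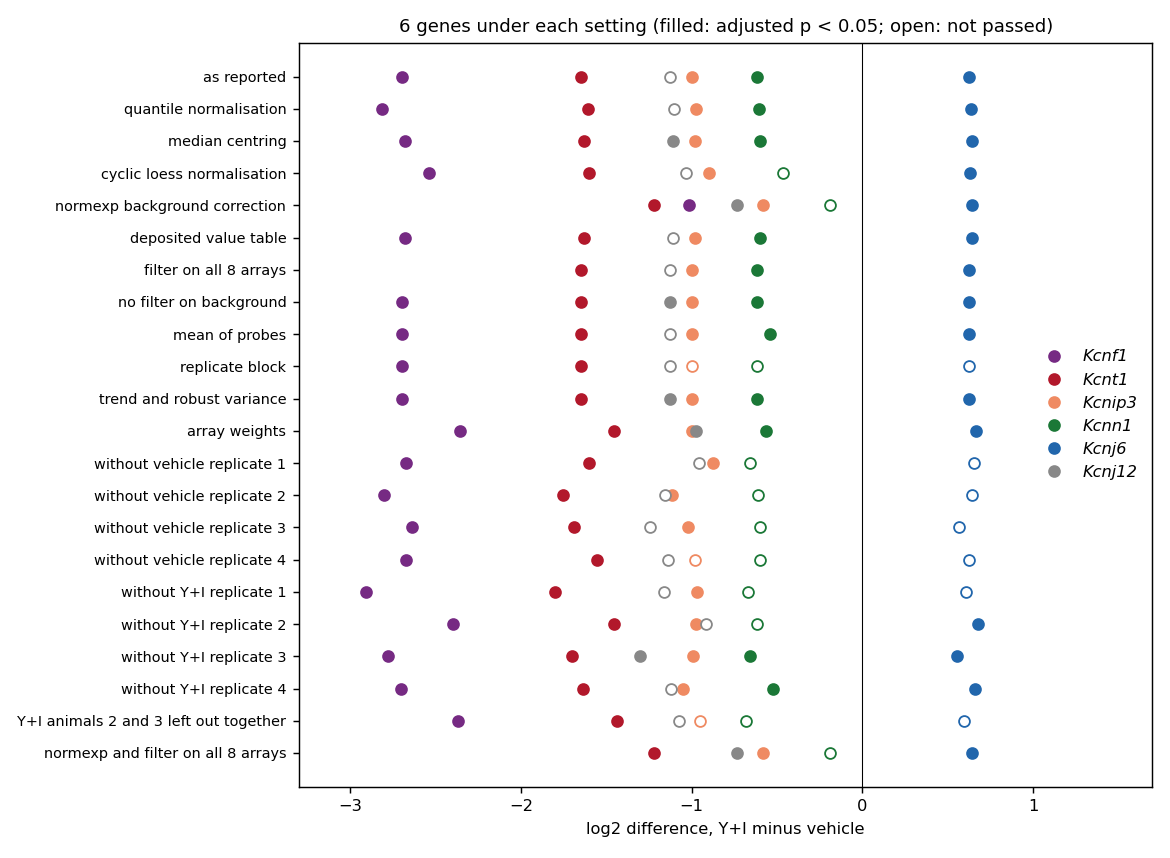
Log2 difference, Y+I minus vehicle (horizontal axis), of 6 genes under each way of processing (vertical axis), filled where the adjusted p was under 0.05 and open where it was not. Kcnf1 and Kcnt1 stay filled wherever they were tested, Kcnn1 and Kcnj6 are open under most omissions of single arrays, and no gene changes side.

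The remaining 15 genes were too dim to test. Of these, 8 were well above background on no array: Kcna10, Kcnh5, Kcne3, Kcnmb1, Kcnj1, Kcnj15, Kcnj2 and Kcnk18. The other 7, Kcne1, Kcnrg, Kcnh8, Kcnn4, Kcnj13, Kcnk15 and Kcnk9, were so on some arrays but not on all 4 of either group. Without any filter on background 12 of the 92 genes passed, 7 of them higher. Under that setting 3885 of all 26720 features passed (14.5%), 3359 of them higher. The potassium channel genes higher included Kcna10, Kcne3, Kcnj2 and Kcnj15, whose signal was not well above background on any array. Of the 28 genes with several probes, 21 had 2 or more probes that were tested, and 18 of their 23 probe pairs had the same sign.

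Genes that assemble with, anchor or regulate potassium channels, or move potassium, were listed apart from the Kcn names. Of 45 such genes, 41 were tested, 3 rose and 1 fell, beside 0.739% of all features higher and 1.6% lower, and the median difference was 0.05, beside -0.02 for all features. Besides Abcc8 and Dpp10, these were Sgk1 and Lgi1. Sgk1, a kinase that raises Kv7 and other channels at the membrane, had levels of -1.03, -0.58, -0.90 and -0.60 in vehicle animals 1 to 4 and 1.26, 0.68, 0.14 and 0.99 in Y+I animals 1 to 4. Every Y+I animal was above every vehicle animal, and Sgk1 rose, with a difference of 1.55 ± 0.23 (SE, adjusted p = 0.0143). Lgi1, a secreted protein that holds Kv1 channels at axons and synapses, had levels of -0.95, -0.95, -0.95 and -0.98 in vehicle animals 1 to 4 and -0.43, -0.57, -0.38 and -0.29 in Y+I animals 1 to 4. Its vehicle animals lay close together and below all Y+I animals, and Lgi1 rose, with a difference of 0.54 ± 0.09 (SE, adjusted p = 0.0243). Lgi1 lost its call without vehicle animal 1, 2, 3 or 4 (adjusted p = 0.0673, 0.0763, 0.0699 and 0.0964) or Y+I animal 1 (0.0559). None of the 5 sodium-potassium pump genes passed, nor did the cation-chloride cotransporter genes Slc12a2 (0.11) and Slc12a5 (-0.10).

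Markers of cell types and neighbouring tissue differed alongside these results, and their part in them was not tested. Over all features, 0.739% were called higher and 1.6% lower, and 54.1% had differences below 0. Markers of hippocampal excitatory neurons, the cells the label implies, were all tested, and 8 of 10 had differences above 0, with a median of 0.57. Of these, Camk2a rose, by 0.78. Their mean level was -0.21 to 0.03 in vehicle animals and 0.13 to 0.53 in Y+I animals. Of the striatal markers 7 of 7 were below 0 (median -0.65; with normexp -0.42, with Drd1 and Adora2a above 0), 1 fell (Drd2), and the mean level was -2.80 to -2.30 in vehicle and -3.36 to -3.10 in Y+I. Thalamic and habenular markers had a median of -0.48 over 8 tested of 9 (-0.30 with normexp), 3 of them above 0 (Tcf7l2, Rgs16 and Zic1), with Slc17a6 lower, mean levels of -2.17 to -2.04 in vehicle and -2.59 to -2.37 in Y+I, and Gbx2 not well above background. Neocortical and retrohippocampal markers had a median of -0.22 over 8 tested of 10 (-0.0083 with normexp), 2 of them above 0 (Bcl11b at 0.56 and Rasgrf2 at 0.30), with Nxph3 at -2.82 and lower, mean levels of -2.15 to -1.89 in vehicle and -2.90 to -2.22 in Y+I, and Cux2 and Ntng2 not tested. For these 4 lists, as for the meningeal and the endothelial and mural lists below, the ranges of the groups did not overlap. The neocortical mean includes Nxph3, whose difference was the largest of its list, and a mean without it was not taken.

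Meningeal markers had a median of -0.62, with 3 of 7 lower, beside 1.6% of all features. Their mean levels were -1.32 to -1.17 in vehicle and -2.01 to -1.72 in Y+I. Of 9 endothelial and mural markers 2 fell (Kdr and Vtn, median -0.15, or 0.03 with normexp), with mean levels of -1.79 to -1.65 and -2.11 to -1.82. Of 4 tested blood markers 2 fell (Hbb and Alas2), and S100a8 and S100a9 stood at 2.18 and 2.08 without passing (adjusted p = 0.158 and 0.129), the median of the 4 being 0.59. No marker of interneurons (8 tested), astrocytes (7), oligodendrocytes (7) or microglia (6) passed, nor did any of the 3 tested of 6 choroid plexus markers, with medians of -0.13, 0.06, 0.12, -0.19 and -0.24. The choroid plexus median was 0.17 with normexp.

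Promoter sequence from RefSeq (build GRCr8) was at hand for 62 of the 92 genes, in 68 windows of 250 bases before the start of transcription. The windows of 3 genes that fell, Kcnf1, Kcnt1 (which has a pair of entries) and Kcnip3, and of the gene that rose, Kcnj6, are shown so that the sequence can be read beside the direction. Those of Kcnf1, Kcnip3 and Kcnj6 lie at chr6:45693707-45693956, chr3:135195411-135195660 and chr11:47778349-47778598, all on the minus strand. Those of Kcnt1 lie at chr3:29081089-29081338 and chr3:29095846-29096095 on the plus strand. Capitals mark the GC box GGGCGG and the cyclic AMP response core TGACG on either strand; the core is part of the full element TGACGTCA.
Kcnf1 promoter: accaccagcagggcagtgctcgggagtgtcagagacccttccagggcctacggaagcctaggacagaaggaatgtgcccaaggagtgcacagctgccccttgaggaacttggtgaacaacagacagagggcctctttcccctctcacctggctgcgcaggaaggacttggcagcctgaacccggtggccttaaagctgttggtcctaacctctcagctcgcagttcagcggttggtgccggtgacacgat
Kcnt1 first promoter: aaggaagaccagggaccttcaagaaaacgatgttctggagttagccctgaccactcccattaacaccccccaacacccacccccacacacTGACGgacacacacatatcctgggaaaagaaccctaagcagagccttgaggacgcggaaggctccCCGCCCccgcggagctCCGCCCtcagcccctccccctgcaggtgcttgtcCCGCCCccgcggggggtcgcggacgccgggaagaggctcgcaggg
Kcnt1 other promoter: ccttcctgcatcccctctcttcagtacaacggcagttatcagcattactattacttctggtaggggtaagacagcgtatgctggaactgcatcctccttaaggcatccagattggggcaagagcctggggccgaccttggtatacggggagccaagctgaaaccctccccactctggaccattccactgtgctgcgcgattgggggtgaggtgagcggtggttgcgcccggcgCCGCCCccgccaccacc
Kcnip3 promoter: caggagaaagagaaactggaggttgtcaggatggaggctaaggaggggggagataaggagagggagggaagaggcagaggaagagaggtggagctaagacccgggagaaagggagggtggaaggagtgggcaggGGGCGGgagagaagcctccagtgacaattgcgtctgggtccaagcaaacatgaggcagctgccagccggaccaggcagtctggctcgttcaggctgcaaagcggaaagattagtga
Kcnj6 promoter: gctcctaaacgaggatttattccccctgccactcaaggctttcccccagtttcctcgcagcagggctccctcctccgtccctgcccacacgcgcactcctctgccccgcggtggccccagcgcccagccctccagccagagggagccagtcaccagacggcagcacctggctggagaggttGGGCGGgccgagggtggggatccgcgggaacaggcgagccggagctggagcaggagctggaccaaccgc
The first window of Kcnt1 held 3 GC boxes and 1 TGACG. Its other window, Kcnip3 and Kcnj6 each held 1 GC box and no TGACG, and Kcnf1 held neither. Over all 68 windows, 48.5% held a GC box, against 30.5% of the 33469 windows of all genes, with median GC contents of 59.6% and 51.2%. TGACG was found in 19.1% and 18.2%, the full TGACGTCA in 0% and 1.59%, the glucocorticoid response motif AGAACA in 16.2% and 17.5%, and TATAAA in 2.94% and 12.9%. These are matches of letters in the windows, on both strands.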

How the data were processed

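Per the labels' protocols, total RNA of 8 hippocampi was primed with oligo-dT, labelled with Cy3 and put on single-channel Agilent rat arrays. Per the file headers, Agilent Feature Extraction 10.5.1.1 gave each spot a background-subtracted processed intensity, and probes were placed on rn4. The deposited value table holds log2 values, its exact centring being unknown. Set against log2 scanner signal less each array's 75th percentile, it had r of at least 0.998 and a median offset of 0.59 to 0.67. Its array medians were -3.51 to -3.35, and it was used as an alternative only.

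The level of a probe was the log2 processed signal less the array's 75th percentile over noncontrol spots. Spots of a probe were averaged, and no potassium channel spot was flagged or saturated. A probe was tested if 50% or more of its spots were well above background in every animal of either group, with 1 probe per symbol. The test was limma 3.58.1 (lmFit, eBayes; R 4.3.3), two-sided and without covariates, with Benjamini-Hochberg adjustment at 0.05. All 92 symbols matched RefSeq, 2 under a newer name. Members, gene lists and alternatives were chosen with earlier results of these data known. Genes named with full values were those passing and, in each group, the 2 with the smallest p; Kcnt2, Kcnn2, Kcnj9, Kcna1, Kcnq3 and Kcng1 were added after their values were seen. Some genes are counted but not reported by name here. Per the labels each replicate is another animal. The fit was checked on simulated data. Alternatives were quantile, median and cyclic loess normalisation, normexp (offset 50), the deposited table, other filters, the mean of probes, a block for animal number, variance models, array weights, a threshold of 0.1 and arrays left out. Figures used matplotlib in Python.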

Additional observations from a re-analysis of the deposited data

Results flagged for a closer look

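Within groups of 4 animals, a single animal stood apart from the other 3 by Dixon's criterion in 2 of the 24 groups of the 12 genes chosen by rule. Kcnc4 had its highest Y+I value in animal 4, at -3.50, against -3.79 for the nearest other. Kcnn1 had its lowest vehicle value in animal 1, at -3.77, against -3.62 for the nearest other. Over all tested potassium channel genes, 10 of 154 groups (6.49%) were over the criterion, and chance flags about 1 in 20. Without those animals, the difference of Kcnc4 was -0.65 and that of Kcnn1 -0.66.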

How the results depend on the processing

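As reported, 1 potassium channel gene was higher in Y+I and 4 were lower. The number higher became 3 with cyclic loess normalisation, 7 with no filter on background, 2 with the mean of probes, 3 with a trended and robust variance and 3 at a threshold of 0.1. Counts over all features moved too. Of 18799 tested, 139 were higher as reported, 257 with cyclic loess and 130 with the mean of probes. A trended and robust variance gave 212 higher and the threshold of 0.1 gave 279. With no filter 3359 of 26720 were higher. Leaving out single arrays gave 0 to 1 higher and 2 to 5 lower, with 0.644% to 1.89% of all features called. Without Y+I animals 2 and 3, the arrays with the smallest share of spots above background, 0 were higher and 2 lower. That fit called 0.872% of all features. With a block for the animal number (replicate block) 0 were higher and 2 lower, with 0.766% of all features called. Kcnf1 and Kcnt1 kept their calls, and Kcnip3 (adjusted p = 0.0587), Kcnj6 (0.125) and Kcnn1 (0.126) lost them. Of the genes listed apart from the Kcn names, Dpp10 (0.0768), Lgi1 (0.116) and Abcc8 (0.0994) also lost their calls with the block, and Sgk1 (0.0468) kept its call. The labels match animals of the groups by number only. Deviations of same-numbered animals correlated at 0.05, -0.11, -0.04 and 0.04 over 18791 features, and 1 of 4 pairs matched best with its own number. Correlations over the whole table cannot show whether same-numbered animals shared a factor that acted on few genes. Under these alternatives the 5 called genes kept their sign. The cause of these changes was not tested. Quantile normalisation and the deposited value table called the same 5 genes. Kcnf1 was not tested under the filter on all 8 arrays. The combination of normexp with that filter was chosen after seeing the data, and 3 of the 4 reported genes it tested passed. Dim signal limits genes near background, where the processed signal is a surrogate, and the number of arrays limits every value.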
